A study of Mus musculus with 2 samples.

Results

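The immunoglobulin variable (V) segments are the germline pieces from which each B cell builds the antigen-binding part of its receptor. All features whose symbol starts with Ighv, Igkv or Iglv were taken, which gave 348 of the 32285 features. They comprise 185 heavy chain segments (Ighv, chromosome 12), 160 kappa light chain segments (Igkv, chromosome 6) and 3 lambda light chain segments (Iglv, chromosome 16), and 130 of the 348 are annotated as pseudogenes. Their raw counts of unique molecular identifiers (UMIs, each standing for 1 captured RNA molecule) were read in B cells. A B cell was a barcode with at least 1000 UMIs, under 10% mitochondrial UMIs, at least 3 UMIs of Cd79a, Cd79b and Ms4a1 together and no Cd3e UMI.

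The study examined CD45+ cells sorted from the digested retinal pigment epithelium and choroid of mouse eyes by droplet single-cell RNA sequencing of transcript 3′ ends. One library came from mice labelled IL-17ra fl (flox) and 1 from mice labelled IL-17RA CKO (conditional knockout of the interleukin 17 receptor A gene), and all mice of both groups had received sodium iodate, an oxidant toxic to the pigment epithelium, at 20 mg/kg body weight into the peritoneum. No untreated mice, ages, number of pooled mice or Cre driver are given in the sources used here. With 1 library per group there is no test between genotypes, and every interval below is a 95% interval for counting error only. Counts from PCR-amplified libraries and from cells of 1 library are not biological replicates.

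The flox library held 617 such B cells and the knockout library 968, with medians of 6131 and 6381 UMIs per cell. Barcodes of at least 1000 UMIs numbered 3460 and 4024, and 4 barcodes were shared by both libraries, none of them among the B cells. The targeted gene Il17ra was at a level of 132 CPM (UMIs of a gene scaled to a common total of 1000000 UMIs) over these flox barcodes and 123 CPM over the knockout ones; 3′ reads can lie outside the deleted part, so this level does not check the label. The B lineage markers Cd79a, Cd79b, Ms4a1, Ebf1 and Pax5 were each found in 83.6% to 99.5% of the cells in both libraries, and Jchain, a plasma cell gene, in 0.486% and 0.517%. The myeloid gene Lyz2 was found in 20.6% of flox and 16.5% of knockout B cells. By the Xist transcript and 4 Y-linked genes, 355 flox and 481 knockout B cells were female and 130 and 257 male, so each library pooled mice of both sexes.

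Each developing B cell joins 1 Ighv segment to D and J pieces for its heavy chain and 1 Igkv or Iglv segment to a J piece for its light chain, and allelic exclusion generally leaves 1 functional receptor per cell. All descendants of that cell inherit the same pair, so the pair of segments is commonly used as a first label of clonal families. Naive B cells that circulate through tissues carry a broad mixture of segments, whereas expanded memory, plasma or B-1 cells can repeat the same pair. Reads at transcript 3′ ends catch the V part of a receptor message only sparsely, and the junctions that would identify a clone were not measured here.

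Sequences are shown for the segments on which the results below turn, each beside a close relative whose reads must be told apart from it. They are the last 300 coding bases of the V exon (299 for Ighv6-3, which is 1 base shorter) from the GENCODE annotation of the mouse genome GRCm38, 5′ to 3′ on the coding strand, with capitals at positions that differ between the members of a pair. Ighv6-6 (chr12:114434788-114435087, minus strand) is the heavy segment that stood apart in flox, and Ighv6-3 (chr12:114391712-114392010, minus strand) was the other detected member of its family; their whole V exons are 92.6% identical.
Ighv6-6: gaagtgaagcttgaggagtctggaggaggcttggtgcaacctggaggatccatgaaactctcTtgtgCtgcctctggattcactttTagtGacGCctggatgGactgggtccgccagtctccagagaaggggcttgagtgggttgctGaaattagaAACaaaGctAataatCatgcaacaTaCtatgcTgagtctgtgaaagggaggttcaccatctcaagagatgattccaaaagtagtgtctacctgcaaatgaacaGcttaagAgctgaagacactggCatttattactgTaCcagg
Ighv6-3: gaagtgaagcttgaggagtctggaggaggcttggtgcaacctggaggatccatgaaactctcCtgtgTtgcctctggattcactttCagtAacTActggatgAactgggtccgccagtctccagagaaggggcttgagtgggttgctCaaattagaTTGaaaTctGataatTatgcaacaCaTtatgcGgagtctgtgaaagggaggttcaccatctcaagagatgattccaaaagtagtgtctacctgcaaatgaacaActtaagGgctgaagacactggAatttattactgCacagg

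Igkv8-30 (chr6:70117061-70117360, minus strand) is the kappa segment found with Ighv6-6, and Igkv8-28 (chr6:70143593-70143892, minus strand) lies 2 segments away with 91.8% identity.
Igkv8-30: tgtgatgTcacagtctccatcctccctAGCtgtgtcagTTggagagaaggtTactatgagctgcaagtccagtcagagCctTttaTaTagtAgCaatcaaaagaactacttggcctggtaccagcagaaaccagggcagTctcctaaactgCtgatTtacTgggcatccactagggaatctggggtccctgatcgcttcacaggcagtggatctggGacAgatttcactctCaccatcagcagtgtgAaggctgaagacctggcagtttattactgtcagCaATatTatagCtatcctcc
Igkv8-28: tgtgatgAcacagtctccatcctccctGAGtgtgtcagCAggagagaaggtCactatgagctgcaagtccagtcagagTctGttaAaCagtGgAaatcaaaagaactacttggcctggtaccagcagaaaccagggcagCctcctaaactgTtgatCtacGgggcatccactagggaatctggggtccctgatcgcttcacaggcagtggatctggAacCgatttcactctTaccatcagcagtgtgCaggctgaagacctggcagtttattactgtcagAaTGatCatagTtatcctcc

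Igkv1-117 (chr6:68121528-68121827, plus strand) and Igkv1-110 (chr6:68270968-68271267, plus strand) were the most used segments of both libraries. Their whole V exons differ at 10 of 313 positions and share an identical run of 142 bases, so reads inside that run cannot be told apart and their split counts are uncertain.
Igkv1-117: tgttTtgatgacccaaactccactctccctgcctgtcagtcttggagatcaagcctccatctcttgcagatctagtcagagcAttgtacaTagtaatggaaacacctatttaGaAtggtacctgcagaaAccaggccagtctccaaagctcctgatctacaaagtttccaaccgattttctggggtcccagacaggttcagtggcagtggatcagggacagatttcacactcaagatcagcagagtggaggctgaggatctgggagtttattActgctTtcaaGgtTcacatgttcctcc
Igkv1-110: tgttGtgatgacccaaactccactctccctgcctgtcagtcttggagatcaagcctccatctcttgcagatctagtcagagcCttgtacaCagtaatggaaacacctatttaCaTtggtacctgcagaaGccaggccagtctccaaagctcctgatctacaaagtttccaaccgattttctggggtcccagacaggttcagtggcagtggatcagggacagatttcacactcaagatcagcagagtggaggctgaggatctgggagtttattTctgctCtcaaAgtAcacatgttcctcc

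Iglv1 (chr16:19085017-19085316, minus strand) and Iglv2 (chr16:19260401-19260700, minus strand) differ at 9 of 305 positions with a shared run of 104 bases, whereas the remaining lambda segment, Iglv3, is 52.2% identical to Iglv1.
Iglv1: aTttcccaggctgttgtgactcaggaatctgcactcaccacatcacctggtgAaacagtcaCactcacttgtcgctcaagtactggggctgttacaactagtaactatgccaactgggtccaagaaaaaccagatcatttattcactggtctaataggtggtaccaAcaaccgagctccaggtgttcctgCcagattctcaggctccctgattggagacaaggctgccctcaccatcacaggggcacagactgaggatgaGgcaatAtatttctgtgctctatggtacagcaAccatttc
Iglv2: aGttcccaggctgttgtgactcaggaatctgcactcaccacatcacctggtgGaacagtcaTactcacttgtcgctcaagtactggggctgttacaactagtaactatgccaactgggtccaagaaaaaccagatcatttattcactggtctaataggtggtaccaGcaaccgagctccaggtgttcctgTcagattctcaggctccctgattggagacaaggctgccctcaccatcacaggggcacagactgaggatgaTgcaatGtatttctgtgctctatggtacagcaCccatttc

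V segment transcripts were largely a property of B cells and slightly more abundant per UMI in the knockout library. Flox B cells held 1253 V UMIs, or 284 CPM (268 to 300.1), and knockout B cells 2162, or 337 CPM (323 to 352), a ratio of 1.19 (1.11 to 1.27). All other barcodes of at least 1000 UMIs together held 63 V UMIs in flox and 123 in knockout. In T cells of the same libraries (at least 2 Cd3e UMIs and none of the B markers), 1205 flox cells held 9 V UMIs and 1414 knockout cells 16, or 0.798 and 1.30 CPM. Because a B marker UMI excluded a T cell, barcodes with free B cell RNA were partly removed, and this level may understate the background. No T cell held 2 UMIs of a segment, against 211 flox and 384 knockout B cells, although T cells were the deeper cells at medians of 8814 and 7974 UMIs.

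The excess in knockout was seen at the heavy and the kappa locus. The Ighv segments together gave 99.3 CPM in flox B cells against 126 CPM in knockout B cells, a ratio of 1.27 (1.13 to 1.43). Igkv was at 159 and 179 CPM, a ratio of 1.13 (1.03 to 1.24). Iglv was at 26.1 and 32.0 CPM, and the interval of its ratio of 1.23 (0.971 to 1.55) included 1. The kappa constant gene Igkc, which is read on the same messages, had a ratio of 1.18 (1.16 to 1.20), and Ighm, the IgM constant gene, one of 0.965 (0.941 to 0.991). The direction for Ighm rested on 11 flox cells holding both Ighv6-6 and Igkv8-30, described below, with 13.4% of flox Ighm UMIs. With these left out of flox the Ighm ratio was 1.04 (1.01 to 1.06). Cell depth moved with the V level within both libraries: from the shallowest cells (1000 to 4000 UMIs) to those of at least 20000 UMIs, it went from 343 to 174 CPM in flox and from 420.0 to 94.6 CPM in knockout. The latter depth held 21 of the flox and 6 of the knockout B cells, and without them the ratio of V CPM was 1.14 (1.06 to 1.22). With each cell thinned to 1000 UMIs, 26.6% (23.1% to 30.3%) of flox and 29.9% (27.0% to 32.8%) of knockout B cells held a V UMI, against 75.4% and 77.7% at full depth.

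Of the 348 segments, 131 were detected in both libraries, 16 only in flox, 41 only in knockout and 160 in neither, the knockout having more B cells. Annotated pseudogenes made up 13 flox and 28 knockout UMIs, or 1.04% and 1.30% of V UMIs, and 17 of the 130 were seen at all. UMIs lay along the whole Ighv locus, whereas the Igkv locus was used mostly at its ends. The 40 kappa segments of lowest coordinate held 41.1% of flox and 46.6% of knockout Igkv UMIs and the 40 of highest coordinate 34.3% and 28.1%, while the 80 between them held the rest. Segments abundant in one library were mostly abundant in the other, with a Spearman correlation of UMIs of 0.802 across the 185 Ighv and 0.805 across the 160 Igkv segments, many of them at 0 in both, given as a description without a test.

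**Figure D1:**
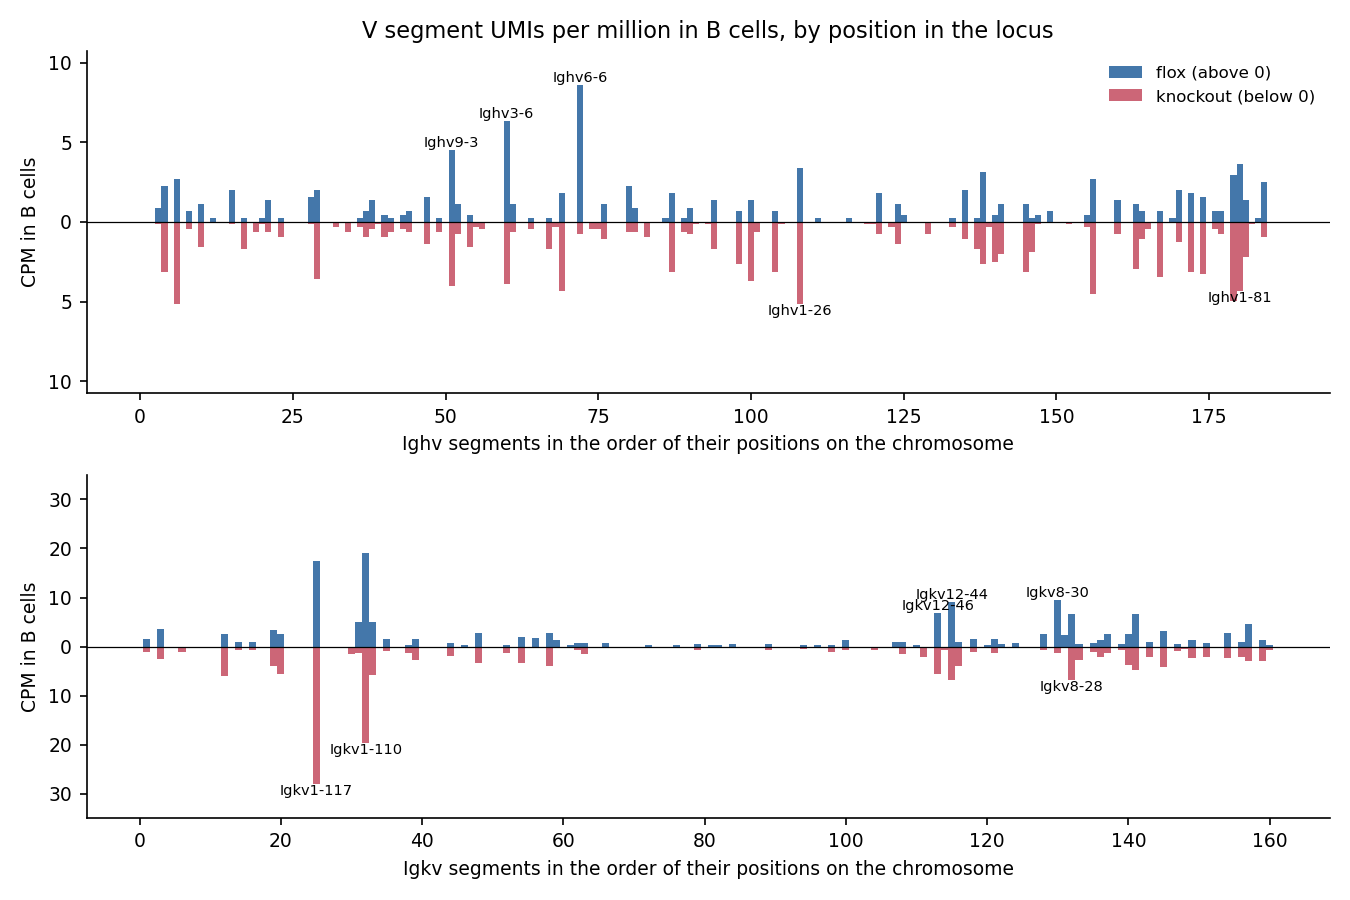
CPM of each Ighv (top) and Igkv (bottom) segment in B cells, with segments in chromosomal order on the x axis, flox drawn above 0 and knockout below 0. Both libraries peak at Igkv1-117 and Igkv1-110, and the flox peaks at Ighv6-6 (8.61 CPM) and Igkv8-30 (9.52 CPM) face knockout levels of 0.780 and 1.40 CPM.

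To count cells rather than molecules, a cell was given a heavy call where 1 Ighv segment had at least 2 UMIs and a share above 0.5 of the cell's Ighv UMIs, and a light call in the same way over Igkv and Iglv together. Heavy calls were possible in 91 flox and 189 knockout cells and light calls in 141 and 226. Segment usage was broad. The effective number of heavy segments, the number of equally used segments that would give the same Shannon entropy, was 33.3 (28.8 to 38.6) in flox and 48.4 (43.6 to 53.7) in knockout. It grows with the number of called cells, and at 91 cells in each library 42 segments were seen in flox and 46.2 were expected in knockout. For light segments the effective numbers were 27.3 (23.4 to 31.9) and 32.1 (28.2 to 36.6), with 42 and 44.4 segments at 141 cells. Calls at 1 UMI, which covered 264 and 442 cells, gave heavy numbers of 54.7 and 57.1 and, at 264 cells, 72 and 71.9 segments. The gap in heavy diversity at 2 UMIs was thus not seen with calls at 1 UMI. That setting calls more cells and also accepts single UMIs as calls, and which of these mattered was not tested.

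The heavy calls were spread over many segments of the large Ighv1 family, which took 45 of 91 calls (49.5%) in flox and 110 of 189 (58.2%) in knockout. Ighv3-6 was called in 8 flox and 9 knockout cells, Ighv9-3 in 4 and 8, and Ighv5-4 and Ighv1-80 in 3 and 9 each. Ighv1-26 followed with 3 and 7, Ighv1-64 with 1 and 8 and Ighv1-22 with 1 and 7. Ighv1-75 and Ighv1-76, tied with Ighv1-81 and Ighv6-3 at 8 cells, had 2 and 6 each. Ighv6-6 had 9 of 91 heavy calls in flox (9.89%, 4.62% to 17.9%) and 0 of 189 in knockout, which allows a share of up to 1.59%. Among these segments, Ighv6-6 alone had intervals of its 2 shares that did not overlap. It entered this list of most called segments through its flox calls alone, so a gap between its shares was partly built into the choice.

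Light calls were more concentrated. Igkv1-117 was called in 16 of 141 flox (11.3%) and 30 of 226 knockout cells (13.3%), and Igkv1-110 in 19 (13.5%) and 23 (10.2%). The other leading kappa segments were Igkv12-44 (8 and 11 cells), Igkv8-28 (8 and 8), Igkv17-127 (3 and 10), Igkv12-46 (7 and 5), Igkv9-120 (2 and 9), Igkv8-19 (5 and 5), Igkv17-121 (4 and 5) and Igkv2-109 (3 and 5). The top segment of each library thus took about the same share, and the intervals of both libraries overlapped for each segment listed here.

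**Figure D2:**
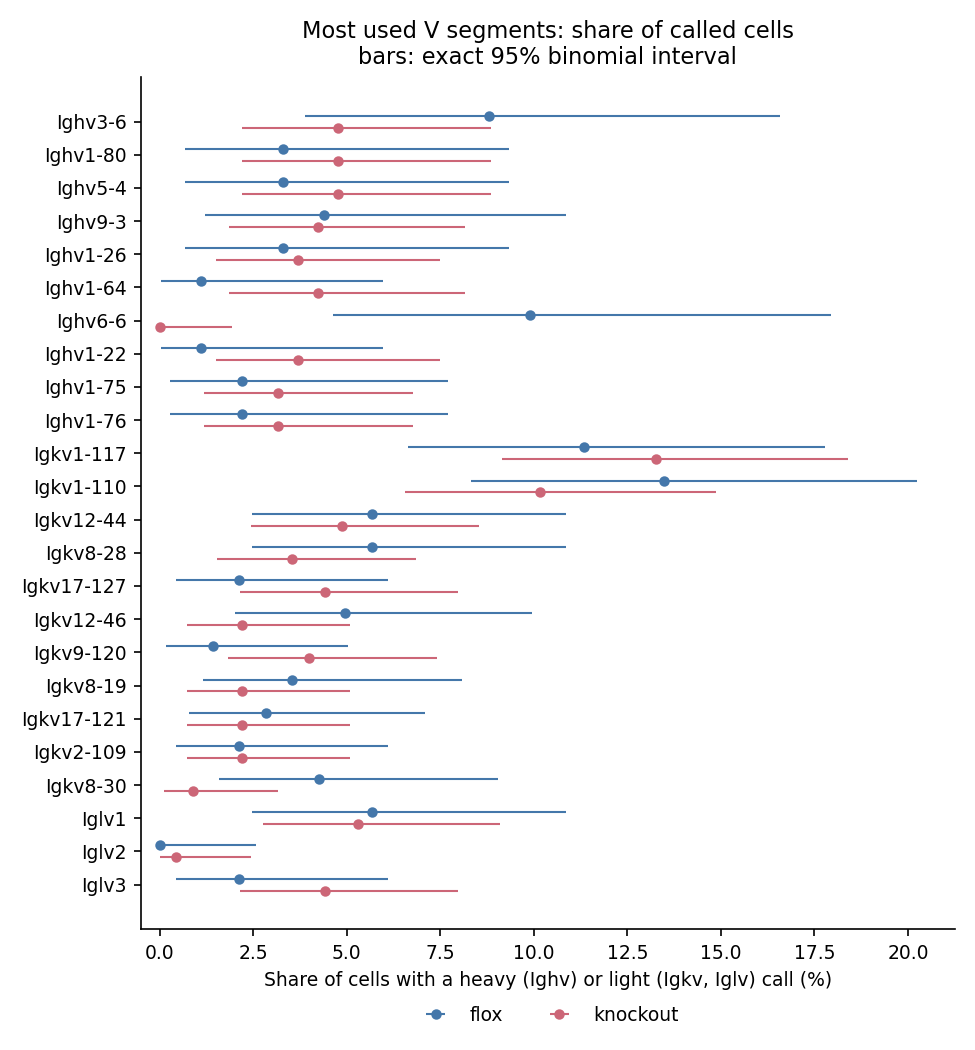
Share of called cells (x axis, percent) for the 10 Ighv and 10 Igkv segments with the most called cells, Igkv8-30 and the 3 Iglv segments, with flox and knockout as points and exact 95% binomial intervals as bars. The Ighv6-6 intervals do not overlap (9.89% in flox, 0 in knockout), whereas those of the other segments shown do. Ighv6-6 is among the most called segments through its flox calls alone.

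Of 15 segments with at least 10 called cells over both libraries, 4 (26.7%) differed by more than 2-fold in their share of called cells. Igkv9-120, Igkv17-127 and Iglv3 were higher in knockout with ratios of 2.81 (0.581 to 26.7), 2.08 (0.535 to 11.8) and 2.08 (0.535 to 11.8), and Igkv12-46 was lower with 0.446 (0.112 to 1.63). All 4 intervals included 1, so at this number of cells no difference was detectable for them.

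Molecule counts gave more segments to compare. Of 49 segments with at least 20 UMIs, 15 (30.6%) differed by more than 2-fold in CPM, 12 higher (24.5%) and 3 lower (6.12%) in knockout. Of all genes with at least 20 UMIs in the same cells, V segments included, 5.23% differed that much (1.34% higher and 3.89% lower). Among those with no more UMIs than the highest V segment it was 9.43% (2.55% higher and 6.87% lower). A segment's UMIs come from few cells, so a single cell can shift its level, and the intervals treat each UMI as independent. The interval was above 1 for 10 of the 49 segments and below 1 for 3. This count was not made over all genes, so whether it is unusual cannot be told. The median log2 ratio was 0.55 over the 49 segments and −0.02 over all genes.

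The 3 lower segments were Ighv6-6, Igkv8-30 and Igkv14-111. Ighv6-6 had 38 UMIs in 13 flox cells and 5 UMIs in 5 knockout cells, a ratio of 0.0905 (0.0278 to 0.230). Igkv8-30 had 42 UMIs in 17 flox cells and 9 in 5 knockout cells, a ratio of 0.147 (0.0631 to 0.307). Without the cells of at least 20000 UMIs the ratios of these segments were 0.505 (0.122 to 1.99) and 0.779 (0.258 to 2.46), neither past 2-fold and both with intervals that included 1. Igkv14-111 had 22 UMIs in 10 and 8 in 7 cells, a ratio of 0.250 (0.0963 to 0.583). The 12 higher segments ranged from Ighv1-72 with 3 flox UMIs in 2 cells and 22 knockout UMIs in 15 cells (5.04, 1.52 to 26.3) down to Ighv1-76 with 7 and 21 UMIs (2.06, 0.845 to 5.75). Igkv1-117, the most abundant segment over both libraries, was at 17.5 and 27.9 CPM, a ratio of 1.60 (1.22 to 2.12). Among female cells alone, at 21.6 and 24.3 CPM, that ratio was 1.12 (0.795 to 1.59). Male cells were at 6.69 CPM in flox (6 UMIs in 4 of 130 cells) and 25.9 CPM in knockout (45 in 12 of 257). Cells with neither Xist nor a Y-linked UMI were at 14.5 CPM in flox (9 UMIs in 4 of 129 cells) and 43.2 CPM in knockout (51 in 15 of 216).

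Other genes of the receptor pathway were compared in the same way, where 5.23% of all genes with at least 20 UMIs passed 2-fold (1.34% higher and 3.89% lower in knockout). In the list of immunoglobulin constant genes, 11 of 13 had at least 20 UMIs, none was more than 2-fold higher in knockout and 4 were lower: Ighg2b (80 UMIs in flox, 10 in knockout), Ighg2c (58 and 0), Ighg3 (89 and 2) and Igha (33 and 12), which encode switched antibody classes. The ratio of Ighg3, 0.0155 (0.00184 to 0.0575), was lower than that of any V segment compared. Neither of the 2 measurable genes of receptor assembly and editing, Vpreb3 and Ung, and none of the 13 receptor signalling genes differed by more than 2-fold. At the share of 5.23% over all genes, lists this short can hold none, so these counts do not set the lists apart. Rag1, Rag2 and Dntt, which cut and join the segments in developing B cells, had at most 1 UMI in a library. At least 2 IgG or IgA UMIs were found in 28 flox and 3 knockout cells, of which 11 flox and 0 knockout cells held Ighv6-6 or Igkv8-30. The 19 flox cells with either of these segments held 65.5% of the flox Ighg2c UMIs. Flox cells with an Ighg2b, Ighg3 or Igha UMI mostly held neither segment. These were 9 of 9 cells for Ighg2b, 8 of 11 for Ighg3 and 12 of 13 for Igha. In 8 of the 28 flox and 1 of the 3 knockout cells the IgG or IgA UMIs also exceeded those of Ighm and Ighd, and none of these 9 held Ighv6-6 or Igkv8-30.

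A cell with several Ighv UMIs nearly always showed a single heavy segment. Of cells with at least 2 Ighv UMIs, 87 of 96 flox (90.6%, 82.9% to 95.6%) and 174 of 202 knockout cells (86.1%, 80.6% to 90.6%) had all of them from 1 segment. Kappa was less exclusive, with 105 of 163 (64.4%, 56.6% to 71.7%) and 169 of 263 (64.3%, 58.1% to 70.1%). Both libraries thus gave the same order of the loci, and their intervals for each locus overlapped.

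Kappa segments found in the same cell tended to be neighbours on the chromosome. Of 96 such pairings in flox cells, 25 (26.0%) joined segments at most 5 positions apart, and of 121 in knockout cells 28 (23.1%), against 6.10% (flox) and 6.11% (knockout) of all pairs of the detected kappa segments. The most frequent pairings were Igkv1-117 with Igkv1-110 (2 flox and 6 knockout cells), which lie 7 positions apart and are 96.8% identical. Next came Igkv17-121 with Igkv9-120 (2 and 4 cells), adjacent segments of different families that are 57.0% identical with no shared run above 14 bases. Igkv12-46 with Igkv12-44 (2 and 3 cells) are 2 positions apart and 94.6% identical. Sequence likeness thus varied widely among neighbours found together.

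Lambda light chains were a minority in both libraries. Iglv was called in 11 of 141 flox light calls (7.80%, 3.96% to 13.5%) and 23 of 226 knockout light calls (10.2%, 6.56% to 14.9%). The difference of 2.38 points had an interval from −4.15 to 8.11 points, so no difference was detectable. Counted by constant genes instead, Iglc UMIs (Iglc1, Iglc2 and Iglc3 together) exceeded Igkc UMIs in 59 flox (9.56%) and 76 knockout (7.85%) B cells. Iglv1 had 63 UMIs in 51 flox and 95 in 71 knockout cells, Iglv3 50 in 45 and 101 in 82, and Iglv2 2 in 2 and 9 in 6. Calls fell on Iglv1 in 8 and 12 cells, on Iglv3 in 3 and 10 and on Iglv2 in 0 and 1.

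The segment and the constant gene of a cell matched closely for kappa but not for lambda. Of cells with an Igkv call, 3 of 130 flox (2.31%) and 3 of 203 knockout cells (1.48%) had more Iglc than Igkc UMIs. Of cells with an Iglv call, 5 of 11 and 14 of 23 (60.9%) did. Over single UMIs, 61.7% of flox and 67.8% of knockout Iglv UMIs lay in cells with at least as many Igkc as Iglc UMIs. An Iglv UMI was found in 10.4% (58 of 558) and 12.8% (114 of 892) of those cells, against 57.6% (34 of 59) and 42.1% (32 of 76) of the cells dominated by Iglc. Iglv3 stood out: 42 of its 50 flox and 78 of its 101 knockout UMIs were in cells with at least as much Igkc, against 29 of 63 and 59 of 95 for Iglv1. T cells of both libraries together, chosen to hold no B marker UMI, held 1 Iglv UMI. The source of Iglv UMIs in B cells with at least as much Igkc was not tested.

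**Figure D3:**
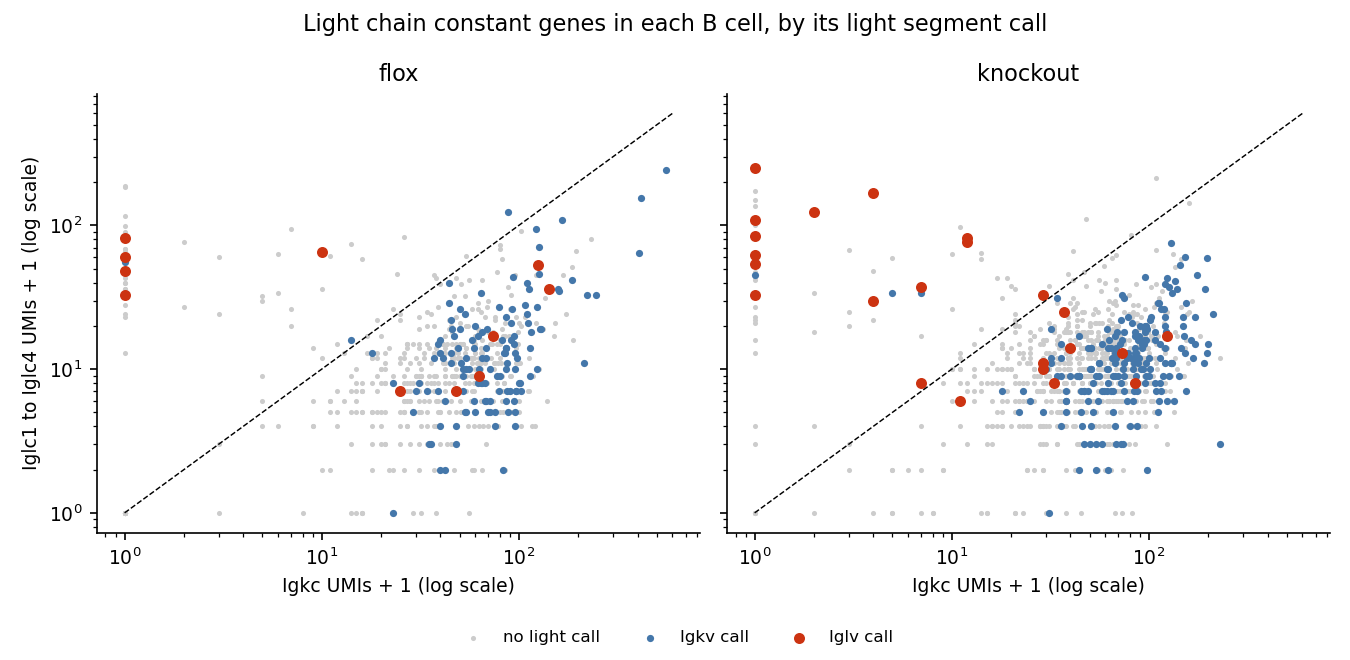
Igkc UMIs (x axis) and summed Iglc1, Iglc2 and Iglc3 UMIs (y axis) of each B cell, both plus 1 on log scales. Cells are coloured by light call, and the dashed line is at equality. The y axis title also names Iglc4, which is not in the sum. Cells with an Igkv call lie below the line apart from 3 in each library, whereas cells with an Iglv call fall on both sides.

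Most heavy-light pairs were seen once. With calls at 2 UMIs, 30 flox cells had both calls and 27 distinct pairs, and 43 knockout cells had 42. Cells that shared their pair with another cell of the library numbered 5 in flox (16.7%, 5.64% to 34.7%) and 2 in knockout (4.65%, 0.568% to 15.8%), and no pair was found in both libraries. The shared pairs were Ighv6-6 with Igkv8-30 (3 flox cells), Ighv1-85 with Iglv1 (2 flox cells) and Ighv9-3 with Igkv1-135 (2 knockout cells).

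Calls at 1 UMI widened this to 139 flox and 237 knockout cells. Then 14 flox cells (10.1%) and 30 knockout cells (12.7%) shared a pair within their library, and 17 of 334 distinct pairs were found in both libraries. Ighv6-6 with Igkv8-30 led with 6 flox cells, where the product of the shares of its segments among the called cells gives 0.219 cells. No other pair exceeded 3 cells: Ighv1-72 with Iglv3 and Ighv6-3 with Igkv2-109 had 3 knockout cells each, with products of 0.550 and 0.131 cells. Ighv1-80 with Igkv1-110, Ighv1-81 with Iglv3, Ighv1-82 with Igkv12-44 and Ighv9-3 with Igkv1-135 had 1 flox and 2 knockout cells each. The pairs known from B-1 cells were nearly missing: Ighv11-2 with Igkv14-126 met in 1 flox cell and Ighv12-3 with Igkv4-91 in none.

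Counted by any UMI, 11 flox cells held Ighv6-6 and Igkv8-30 together, out of 13 with Ighv6-6 and 17 with Igkv8-30. In knockout, each segment was in 5 cells and 0 of 968 held both, which allows a share of up to 0.310%. Each of the 11 cells held between 1 and 10 Ighv6-6 UMIs (median 2) and between 1 and 12 Igkv8-30 UMIs (median 2). All 35 Ighv UMIs of these cells were Ighv6-6. Of their 50 Igkv UMIs, 30 were Igkv8-30 and 14 came from its neighbours Igkv6-29 and Igkv8-28, and 3 UMIs were Iglv. The cells were chosen for an Ighv6-6 UMI, so those with 1 Ighv UMI show only that segment by construction. Of all flox cells with at least 2 Ighv UMIs, 90.6% also showed 1 segment. The lack of other Ighv UMIs is thus not particular to these cells. Their kappa UMIs included adjacent segments. Leaving out every cell of at least 20000 UMIs left 2 of the 11, and leaving out cells with any UMI of Cd3d, Cd3g, Trac, Lyz2 or Csf1r left 4.

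The neighbours followed Igkv8-30 beyond these cells. Igkv6-29, 1 position away and 75.3% identical to Igkv8-30, had a UMI in 4 of 17 flox cells with Igkv8-30 (23.5%, 6.81% to 49.9%) and in 0 of the 600 flox cells without it. Igkv8-28 had one in 5 of 17 (29.4%) and 7 of 600 (1.17%). In knockout, none of the 5 cells with Igkv8-30 held either neighbour, and among the 963 others Igkv6-29 was in 1 and Igkv8-28 in 13. In flox, then, every Igkv6-29 UMI was in a cell with Igkv8-30.

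The 11 cells were deep, female and high in a list of genes raised in memory B cells. Their UMIs ranged from 8945 to 42041 with a median of 28750, against a median of 5993.5 in the 598 flox B cells with neither segment. Xist was found in all 11 (6 to 37 UMIs), and 1 Y-linked UMI in 1 of them. In flox male cells, 0 of 130 held either segment. The summed level of Ahnak, Lgals1, Itgb1 and Cd44, a list of genes raised in memory B cells, ranged from 10.1 to 62.1 UMIs per 10000 (median 42.8), against a median of 1.32 in the cells with neither segment. At least 20 per 10000 was reached by 10 of the 11, by 3 of 6 cells with Igkv8-30 alone and by 1 of 2 with Ighv6-6 alone.

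**Figure D4:**
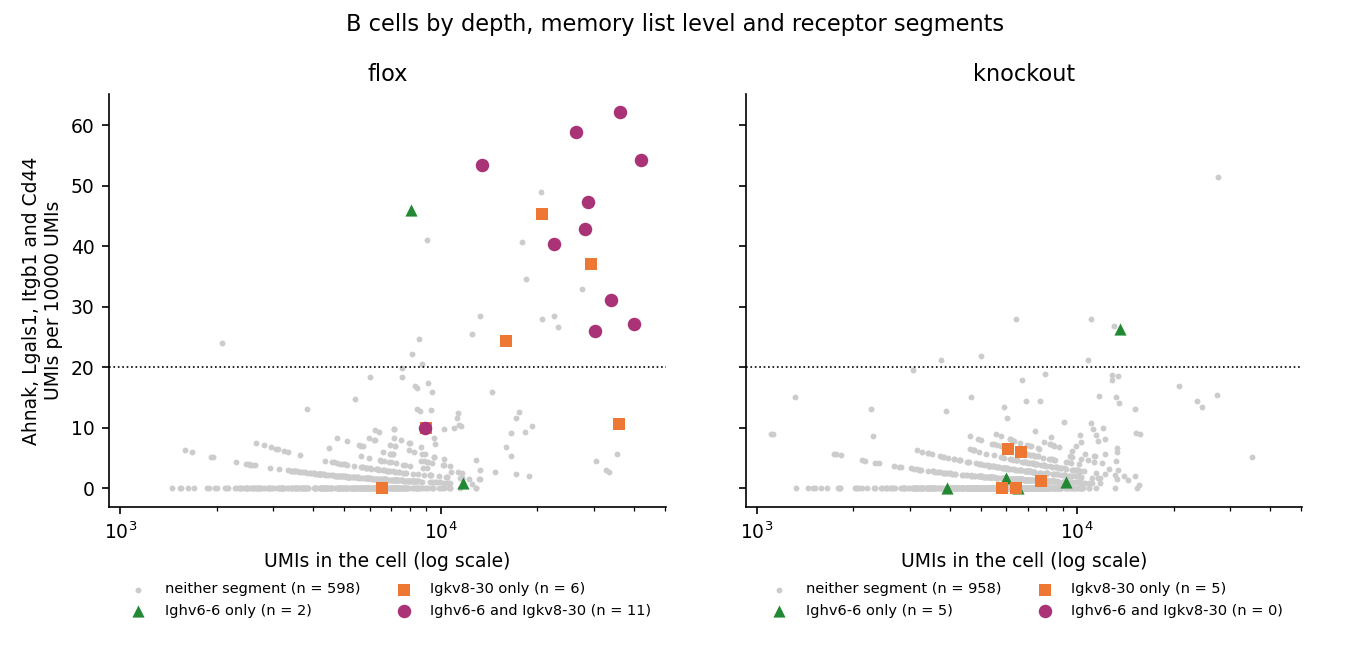
UMIs per B cell (x axis, log scale) and summed Ahnak, Lgals1, Itgb1 and Cd44 UMIs per 10000 UMIs (y axis) in flox (left) and knockout (right), with cells marked by their Ighv6-6 and Igkv8-30 UMIs and a dotted line at 20 per 10000. In flox, 10 of 11 cells with both segments lie above the line, and knockout has no cell with both.

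Pooled over the 11 cells, several genes stood far above the 598 flox B cells with neither segment, to which the levels below are compared. Ahnak, which encodes a large scaffold protein, was at 1914 CPM against 143 CPM, and the galectin gene Lgals1 at 1025 against 59.8 CPM. The cell cycle gene Ccnd2 was at 678 against 63.1 CPM and the enzyme gene Ddt at 1317 against 48.4 CPM. Spn (CD43), a surface protein of B-1 and activated B cells, was at 376 against 17.4 CPM, and the transcription regulator Zbtb32 at 189.5 against 9.33 CPM. The highest fold differences among well-detected genes found in at least 9 of the 11 cells were those of Slpi (83.6-fold), Myo3b (82.9-fold) and Parm1 (72.3-fold). Cd80, a costimulatory ligand, was at 212 against 18.9 CPM. Spn and Zbtb32 belong to the list of B-1 markers examined. Of its other members, Bhlhe41 was at 57.8 against 22.7 CPM, in 8 of the 11 cells. Cd9 was at 89.9 against 26.2 CPM, in 6 of the 11, and at 85.1 CPM in the 9 cells with neither segment and at least 20000 UMIs. Cd5, the classic B-1a marker, was at 3.21 against 2.02 CPM, in 1 of the 11 cells. Which B cell subset the 11 cells belong to was not tested. All 11 cells held Ighm, at 4304 against 2127 CPM, and 6 held Ighg2c. With the 8 cells holding only 1 of the segments added to the comparison, the 606 flox B cells were at 163.9 CPM for Ahnak, 80.2 CPM for Lgals1, 85.6 CPM for Ccnd2, 92.9 CPM for Ddt and 25.4 CPM for Spn. The 6 cells with Igkv8-30 alone resembled the 11 in several of these genes, at 1489 CPM for Ddt, 825 CPM for Ccnd2, 817 CPM for Ahnak, 587 CPM for Lgals1 and 298 CPM for Spn.

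Genes of resting follicular and marginal zone B cells were low in the same cells. Ighd, the IgD constant gene, was at 96.4 against 714 CPM. Fcer2a (CD23) had 1 UMI in the 11 cells (3.21 against 309 CPM), and Cr2 (CD21) had none against 101 CPM, in 7.06% of all flox B cell UMIs. Pax5, a transcription factor of the B lineage, was at 359.7 CPM, against 427 CPM in the cells with neither segment.

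Other deep B cells of the same library shared this profile in part. Of the 21 flox B cells of at least 20000 UMIs, 9 were among the 11, 3 held Igkv8-30 alone and 9 held neither segment. The 3 had 45.4, 37.1 and 10.6 memory list UMIs per 10000, and 19, 19 and 113 Ddt UMIs. Of the 9 with neither segment, 5 reached 20 memory list UMIs per 10000 (median 26.6), and they were at 733 CPM for Ahnak and 510.4 CPM for Lgals1, above the 103 and 29.9 CPM of the 589 shallower cells with neither segment and below the 11 cells. The same 9 were at 150 CPM for Ccnd2, 60.8 CPM for Ddt, 44.6 CPM for Spn and 782 CPM for Ighm, also lower than in the 11 cells. Their Lyz2 level was 2637 CPM, against 12.8 CPM (4 UMIs in 3 cells) in the 11 cells, where the T cell genes Cd3d, Cd3g, Trac and Trbc2 had 7 UMIs and Cd3e none. Of 4 myeloid markers, Lyz2, Csf1r and Fcer1g had 8 UMIs in the 11 cells and Itgam, which B-1 cells of body cavities also express, 63. A doublet caller (Scrublet) marked 24 of 3420 flox and 56 of 3982 knockout cells, among them 2 flox and 12 knockout B cells and none of the 11.

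**Figure D5:**
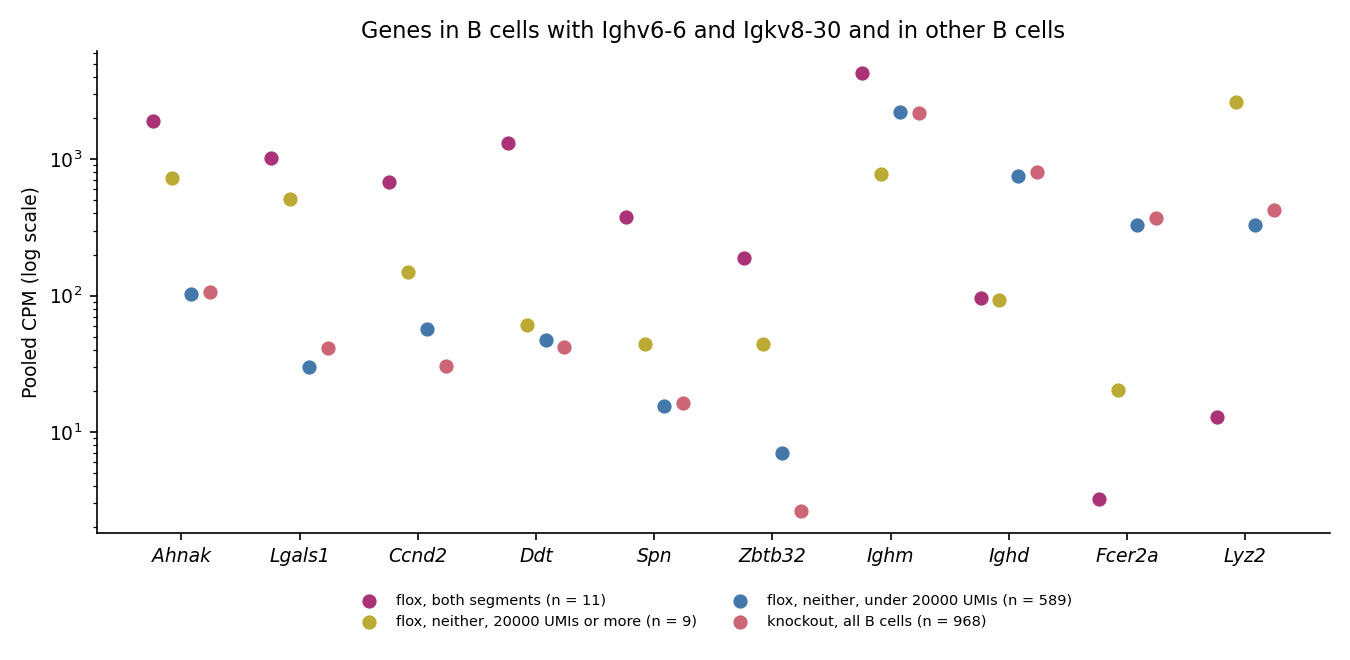
Pooled CPM (y axis, log scale) of 10 genes in the 11 flox cells with Ighv6-6 and Igkv8-30, in the flox B cells with neither segment of at least 20000 UMIs (9 cells) and below (589 cells), and in all 968 knockout B cells; the 8 flox cells with 1 of the segments are not drawn. The 11 cells are highest for Ahnak, Lgals1, Ccnd2, Ddt, Spn, Zbtb32 and Ighm and lowest for Fcer2a and Lyz2; pooled values have no error bars because cells of 1 library are not replicates.

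Read from the other side, 14 of the 28 flox cells high in the memory list carried at least 1 of these segments. Cells with at least 20 list UMIs per 10000 numbered 28 of 617 in flox (4.54%, 3.04% to 6.49%) and 8 of 968 in knockout (0.826%, 0.357% to 1.62%). Of the 17 flox high cells with an Ighv UMI, 11 had Ighv6-6 (64.7%, 38.3% to 85.8%), against 2 of 252 other flox cells with an Ighv UMI. Of the 16 with an Igkv UMI, 13 had Igkv8-30 (81.3%, 54.4% to 96.0%), against 4 of 305. In knockout, 1 of 3 high cells with an Ighv UMI had Ighv6-6 and 0 of 6 with an Igkv UMI had Igkv8-30. The medians of the flox high and other cells were 20715.5 and 5963 UMIs, and the part of depth in this overlap was not tested.

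The 11 cells held a large part of the flox UMIs of some genes that differed between the libraries. They made up 7.06% of flox B cell UMIs but 37.5% of the Ccnd2, 49.2% of the Lgals1, 51.8% of the Ddt, 47.0% of the Ahnak and 52.9% of the Spn UMIs. In the values below, cells were left out of flox only, and the 10 knockout cells with either segment stayed in. The genes given are high in the cells left out, so their flox level falls by construction. With all cells, Ccnd2 was 4.19-fold lower in knockout. Without the 11 cells it was 2.82-fold lower, and without the 19 cells holding either segment 2.07-fold. For Ddt the same values were 4.26-, 2.21- and 1.15-fold, for Lgals1 3.55-, 1.94- and 1.45-fold, for Ahnak 2.72-, 1.55- and 1.35-fold and for Spn 3.09-, 1.56- and 1.07-fold. The ratios of knockout over flox without either segment had intervals of 0.720 to 1.05 for Ddt and 0.680 to 1.28 for Spn, both including 1. For other genes a difference was left: Zbtb32 was 9.58-fold lower in knockout with all cells, 4.88-fold without the 11 and 3.52-fold without the 19. For Itgb1 these values were 2.54-, 1.88- and 1.72-fold and for Cd44 2.28-, 1.75- and 1.55-fold, and all 3 intervals without the 19 cells excluded a ratio of 1. With 1 library per genotype and an unknown number of mice in each, cells of 1 mouse and an effect of genotype cannot be told apart.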

How the data were processed

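CD45+ cells of 1 flox and 1 knockout library were analysed from the deposited matrices of raw UMI counts, which the authors made with Cell Ranger against mm10, per the submitters' processing notes. Their headers name Cell Ranger 4 for flox, whose file lists 1002803 barcodes, and version 7.0.1 for knockout, whose file lists 4096 barcodes of at least 500 UMIs, so software version and genotype cannot be told apart. The labels name a version 2 kit, and the barcode number of the flox file is larger than expected for it, so the kit version is uncertain. The authors' V segment counts are per annotated gene, and reads shared by near-identical segments may be lost or misplaced.

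B cells and calls were chosen as given in the report (Python 3.11.15, numpy 2.4.6, scipy 1.17.1, pandas 2.3.3). The segments, gene lists and cell rules were chosen with earlier results of these data known. CPM divided pooled UMIs by the UMIs of the same cells. Levels have exact Poisson, ratios conditional binomial, shares Clopper-Pearson, differences of shares Newcombe and effective numbers analytic entropy intervals, all at 95%, and the limit for a count of 0 is 3 counts. Ratios were called at 2-fold with at least 20 UMIs or 10 called cells over both libraries. No test was run, because each group is 1 library. Named were the 10 Ighv and 10 Igkv segments with the most called cells (ties in alphabetical order), every Iglv segment, segments past 2-fold with at least 10 calls, pairs in at least 3 cells of a library or in both libraries (12 at most, of which those with 3 or more cells are printed), and fixed B-1 pairs. Segments and genes named by molecule counts, and the genes of the Ighv6-6 and Igkv8-30 cells, were singled out after their values were seen. Doublets were called with Scrublet in scanpy 1.11.5 and kept, and their removal was an alternative. Sequences came from GENCODE vM21 and were aligned with Biopython 1.88. The calls and ratios were tested on simulated data. Alternatives varied the depth, mitochondrial and marker limits, the call rule, thinning and the cells left out.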

Additional observations from a re-analysis of the deposited data

Results flagged for a closer look

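V segment UMIs were also present outside the B cells of the comparisons. In the flox file, 778499 barcodes of 1 to 100 UMIs, which are mostly empty droplets, held 125 V UMIs, or 38.9 CPM, against 0.798 CPM in flox T cells and 284 CPM in flox B cells; the knockout file lists no such barcodes. Barcodes with the B cell markers that also held Cd3e, and were therefore left out, numbered 22 in flox with 38 V UMIs and 47 in knockout with 81. Both exceed what a count of 0 would allow.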

How the results depend on the processing

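Over the 9 quantities compared between or within the libraries, 94 of 123 values under other settings stayed within the interval of the reported value, or within 1.5 times for a count. The ratio of V CPM did so under every setting run for it. With calls at 1 UMI, 17 of 59 segments passed 2-fold, and the effective numbers were 54.7 (flox) and 57.1 (knockout) for Ighv and 39.2 and 45.4 for light segments. With calls at 3 UMIs, 0 of 3 segments passed 2-fold, the numbers were 19.7 and 36.2 for Ighv and 13.8 and 20.1 for light, and 0% of cells shared a pair in either library. Calls at 80% of the locus UMIs gave 2 of 11 segments past 2-fold, a knockout light number of 28.1 and 0% of knockout cells in a shared pair. Cells thinned to 1000 UMIs gave few calls: 1 segment past 2-fold, Ighv numbers of 1 and 10, light numbers of 8.12 and 9.44 and a lambda difference of −13.3 points (−41.6 to 4.59), of opposite sign to the reported one, whose interval also included 0; shared pairs gave no value there. Fewer called cells lower these numbers by construction. Without cells with a T or myeloid marker UMI, the Ighv numbers were 28.3 and 42.7 and 0% of knockout cells shared a pair. By share of locus UMIs, 13 of 49 segments passed 2-fold.

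Settings chosen after seeing the data were female cells only, no Scrublet doublets, no cells of at least 20000 UMIs and no cells with Ighv6-6 or Igkv8-30. Female cells alone gave 0 of 3 segments past 2-fold, Ighv numbers of 25.1 and 41.7 and a flox light number of 19.2. The ratio of Igkv1-117 was 2.38 after thinning. The ratios of Ighv6-6 and Igkv8-30 no longer passed 2-fold without cells of at least 20000 UMIs, at 0.505 (0.122 to 1.99) and 0.779 (0.258 to 2.46). After thinning both were 0.319 (0.00540 to 6.12), an interval that includes 1. Without the 11 cells holding both segments they were 1.07 (0.207 to 6.86) and 0.480 (0.178 to 1.24), cells that by construction hold much of both segments. No paired analysis was possible because each group is 1 library, and leaving out a replicate was not possible for the same reason. Depth limits the calls to 14.7% and 19.5% of B cells for heavy and 22.9% and 23.3% for light segments.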
